A study of Mus musculus with 12 samples.

Results

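The genes described here are 10 immune checkpoint ligands and suppressors of immune cells: Cd274, Pdcd1lg2, Cd80, Cd86, Cd276, Vtcn1, Lgals9, Ido1, Nt5e and Cd47. They were chosen by name, and all 10 were measured among 18193 genes, by 20 of the 34945 probe sets that have 1 gene symbol. RNA came from 12 tumours that had been grown in syngeneic mice, dissected and frozen. They represent 3 lung adenocarcinoma lines with 4 arrays apiece. All 3 lines were derived from tissue of mice with the genotype p53R172H∆g/+ K-rasLA1/+, so an altered p53 allele and an activated K-ras allele are common to every group. 393P came from a primary lung tumour and 393LN from a mediastinal lymph node of mouse 393, whereas mouse 344 gave 344SQ, taken at a subcutaneous site; the labels call them non-metastatic, intermediately metastatic and highly metastatic. Each grade of metastasis is thus represented by 1 line, a mass culture and not a clone by the series' account, and 344SQ also differs from the others in its mouse of origin. The labels do not say whether the 4 tumours of a line grew in separate animals, so p-values measure the spread between these samples, which may in part be technical.

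Immune checkpoints are pairs of surface proteins that restrain T cells and phagocytes. Tumour cells, macrophages and dendritic cells can carry the ligands, while the receptors sit mainly on lymphocytes and myeloid cells; interferon released by activated T cells is a well known inducer of PD-L1 and of the enzyme IDO1. Other suppressors act through metabolites: IDO1 degrades tryptophan, and CD73, the product of Nt5e, makes adenosine outside the cell. In later work on tumour lines of this model, the transcription factor ZEB1 and the microRNAs of the miR-200 family were linked to PD-L1.

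The arrays were alike in scale, with medians of log2 intensity between 7.19 and 7.29. RNA quality was read from actin, whose 3' probe set exceeded the 5' one 1.47-fold on 393P replicate 1 and 1.04-fold to 1.19-fold elsewhere (11 arrays). As a check of the tissue label, the keratin gene Krt8 was at 13.98, 13.81 and 13.98 in 344SQ, 393LN and 393P, whereas the lung lineage factor gene Nkx2-1 lay near the floor at 4.24, 4.18 and 4.15. Levels here and below are means of log2(intensity + 16), on which scale the lowest possible value is 4.09. Epcam, which marks epithelial cells, was at 9.63 in 344SQ against 13.27 and 13.45. Other lung lineage genes did not all lie low. The surfactant gene Sftpb was at 12.83 in 344SQ against 7.52 in 393LN and 7.60 in 393P, and Foxa2 at 11.67 against 7.84 and 6.78. Of 11 lung epithelial genes 2 were called higher and 1 lower in 344SQ in each of its comparisons. Since host cells share the RNA of a dissected tumour, fewer cells of a type and less RNA per cell cannot be told apart in any of these results.

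The promoters of 4 members are printed because the results turn on them: Nt5e and Vtcn1 differed between the lines, Cd274 followed the interferon response genes from array to array, and Lgals9 held motif matches. Windows run from 250 bases before to 50 bases after the start of the RefSeq gene in build GRCm38.p6 and are written 5′ to 3′ on the gene's strand, in lower case, with any motif match in capitals. They lie at chr19:29367188-29367487 on the plus strand for Cd274, chr11:78984875-78985174 on the minus strand for Lgals9, chr9:88327359-88327658 on the plus strand for Nt5e and chr3:100825209-100825508 on the plus strand for Vtcn1.
Cd274: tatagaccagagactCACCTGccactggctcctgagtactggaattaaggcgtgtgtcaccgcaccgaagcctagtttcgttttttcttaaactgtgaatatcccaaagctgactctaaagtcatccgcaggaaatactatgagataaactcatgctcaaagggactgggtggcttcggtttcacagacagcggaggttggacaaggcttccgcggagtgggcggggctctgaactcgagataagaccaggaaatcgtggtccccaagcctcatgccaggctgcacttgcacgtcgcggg
Lgals9: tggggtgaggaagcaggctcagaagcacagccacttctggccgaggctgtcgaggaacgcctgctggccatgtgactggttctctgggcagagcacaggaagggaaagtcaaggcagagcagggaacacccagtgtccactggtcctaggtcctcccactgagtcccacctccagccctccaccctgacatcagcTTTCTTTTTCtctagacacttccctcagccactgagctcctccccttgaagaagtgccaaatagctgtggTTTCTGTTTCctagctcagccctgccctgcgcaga
Nt5e: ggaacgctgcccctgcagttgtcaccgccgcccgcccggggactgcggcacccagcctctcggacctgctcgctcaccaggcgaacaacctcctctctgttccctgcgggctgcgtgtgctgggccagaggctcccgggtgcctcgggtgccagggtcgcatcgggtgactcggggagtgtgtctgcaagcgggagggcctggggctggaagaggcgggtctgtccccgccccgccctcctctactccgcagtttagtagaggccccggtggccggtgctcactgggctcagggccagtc
Vtcn1: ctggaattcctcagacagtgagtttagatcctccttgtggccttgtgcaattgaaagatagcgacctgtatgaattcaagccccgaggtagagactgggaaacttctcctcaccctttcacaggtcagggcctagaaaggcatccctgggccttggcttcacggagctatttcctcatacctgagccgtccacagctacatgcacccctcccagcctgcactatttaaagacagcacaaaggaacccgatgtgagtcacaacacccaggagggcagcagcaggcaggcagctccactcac

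RefSeq windows were found for 8 of the 10 members; Cd86 and Ido1 had none in the table used. Both strands were searched for the interferon-stimulated response element and for CAGGTG, an E-box that ZEB1 can bind. They were also searched for a fixed NF-kB sequence, with no variable letters. The capitals in the Cd274 window mark CACCTG, the E-box read on the other strand, from base -235 to base -230 relative to the start. The same letters occur in 20.21% of the 32851 windows of this length in the table. In the Lgals9 window the capitals mark TTTCTTTTTC, from -55 to -46, and TTTCTGTTTC, from 16 to 25, which are response elements read on the other strand; 3.44% of all windows hold one. No other member window held any of these 3 motifs. The fixed NF-kB sequence occurs in 0.1% of all windows. Other forms of the NF-kB site were not searched for, so the member windows may hold them. A match is a run of letters and was not tested for binding.

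The comparison of 344SQ with 393P set the highly metastatic line against the non-metastatic one. Nt5e was 2.26-fold higher in 344SQ. Vtcn1 was lower, by an amount that cannot be fixed because its 344SQ intensities lay near the floor, and the other 8 members did not pass the test. A gene is said to be higher or lower here at an adjusted p under 0.05, from limma with Benjamini-Hochberg adjustment over the 18193 genes. The 2 of 10 members stand against a background of 10.5% of all genes called in this comparison (4.86% higher and 5.62% lower in 344SQ). Nt5e and Vtcn1 were also the 2 members whose 4 values did not overlap with those of 393P, as holds for 16.7% of genes (8.12% with 344SQ higher, 8.62% lower). At an unadjusted p under 0.05, 3 members passed, against 23.6% of all genes. The members' median difference was -0.18, beside 0.00 over all genes.

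Against 393LN, the intermediate line, Nt5e was 2.51-fold higher and Vtcn1 lower in 344SQ, again 2 of 10 members, with 10.9% of all genes called (3.99% higher, 6.92% lower). Their median difference was -0.11, beside -0.02 over all genes. Both comparisons use the same 4 344SQ arrays, so their calls are not independent of each other. Between 393LN and 393P, the lines of one mouse, limma called 0 of 10 members, and 0 also passed at an unadjusted p under 0.05; 2.45% of all genes were called there (1.75% higher and 0.698% lower in 393LN), and 15.7% passed unadjusted. No member had values that did not overlap between these lines, against 10.3% of genes (6.69% higher, 3.57% lower). In 22 other settings of the analysis the count there was 0 as well.

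**Figure D1:**
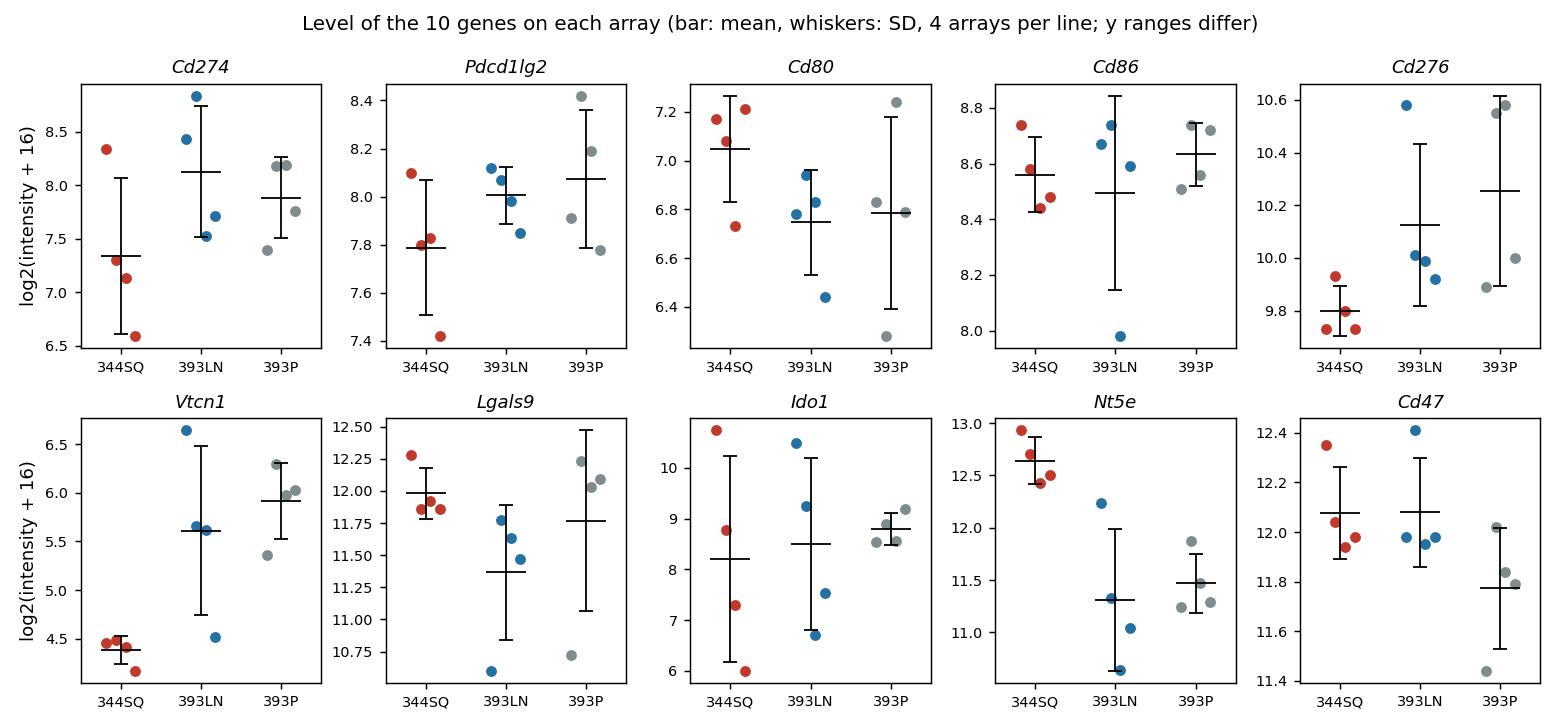
Level of each of the 10 genes on every array, as log2(intensity + 16), by tumour line (4 arrays each; points are arrays, the bar is the mean and the whiskers the SD; y axes differ). The 4 344SQ arrays lie above all others for Nt5e and below all others for Vtcn1, and Ido1 spans 6.0 to 10.74 within 344SQ.

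Nt5e encodes CD73, the surface enzyme that turns AMP into adenosine, a nucleoside that dampens T cells. Its level was 12.93, 12.70, 12.43 and 12.50 on the 344SQ arrays. On the 393LN arrays it was 12.24, 11.33, 10.64 and 11.04, and on the 393P arrays 11.24, 11.87, 11.47 and 11.29. Every 344SQ array lay above all 8 arrays of the 393 lines, with 393LN replicate 1 the nearest. The difference from 393P was 1.18 ± 0.28 (SE, n = 4 per line; 95% confidence interval 0.57 to 1.79; limma adjusted p = 0.0193). That from 393LN was 1.33 ± 0.28 (0.72 to 1.94; adjusted p = 0.0111), and 393LN differed from 393P by -0.15 ± 0.28 (-0.76 to 0.46; adjusted p = 0.866).

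The call against 393P sat close to the threshold. It ended without 344SQ replicate 1 (difference 1.08, limma adjusted p = 0.0556), without 344SQ replicate 2 (1.16, 0.0529) and without 393P replicate 4 (1.12, 0.0531), while the call against 393LN held whichever array was left out (highest adjusted p 0.0358). A second probe set of Nt5e gave like differences with a wider spread, 1.27 from 393P and 1.27 from 393LN, and did not pass (adjusted p = 0.0703 and 0.0676 over the 34945 probe sets). Its 344SQ values ran from 9.84 to 11.05, its 393LN values from 8.73 to 9.36 and its 393P values from 7.81 to 9.83. The 344SQ arrays lay above the others on it as well, if only just. The third probe set was near the floor everywhere, with a mean of 4.24, and can show little.

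Nt5e is also made by fibroblasts and other mesenchymal cells. Of 10 fibroblast markers 0 were called in either 344SQ comparison. At an unadjusted p under 0.05, 5 of 10 passed in each, beside 23.6% and 25.7% of all genes. The markers' median differences were upward, 0.38 from 393P and 0.48 from 393LN. Their mean level was 11.91 to 12.18 on the 344SQ arrays, 11.38 to 11.92 on the 393LN arrays and 11.29 to 11.86 on the 393P arrays, and none of the 10 was at the floor. Genes of mesenchymal transition also moved. Of 8 such genes 6 rose in 344SQ against 393P and 3 against 393LN. Called in both were Zeb1, Snai2 (0.94 and 0.79) and the N-cadherin gene Cdh2 (3.62 and 3.27). The Snai2 call against 393LN was lost without 393LN replicate 3 (limma adjusted p = 0.0535). The intermediate filament gene Vim was called against 393P (1.25, limma adjusted p = 0.00914) but not against 393LN (0.73, adjusted p = 0.0965). Snai1 and Twist1, called against 393P, lost that call on leaving out any 1 of 7 and of 5 arrays (highest adjusted p 0.112 and 0.0685). The part of these cells or of this programme in the Nt5e result was not tested.

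The rest of the adenosine pathway changed gene by gene. Of 9 measured genes, 1 rose and 2 fell in 344SQ against 393P, and 1 rose and 2 fell against 393LN. Median differences over the 9 were -0.09 and -0.08. Entpd1, the gene of CD39, which supplies CD73 with AMP, was at 9.28 ± 0.26 (SD, n = 4), 9.36 ± 0.12 and 9.45 ± 0.13 in 344SQ, 393LN and 393P, with adjusted p of 0.517 and 0.757 for 344SQ against 393P and 393LN. Entpd3, another ectonucleotidase gene, was far lower in 344SQ, at 6.20 to 6.55 against 7.70 to 9.57 in 393LN and 8.03 to 8.96 in 393P. Its differences were -2.22 ± 0.35 from 393P (limma adjusted p = 0.00162) and -2.11 ± 0.35 from 393LN (adjusted p = 0.00251).

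Ada, the enzyme gene whose product breaks adenosine down, fell as well. It was at 8.22, 8.08, 8.71 and 7.68 on the 344SQ arrays and at no less than 8.81 on any array of the 393 lines. The differences were -1.18 ± 0.30 from 393P (limma adjusted p = 0.0261) and -1.26 ± 0.30 from 393LN (adjusted p = 0.0197). On leaving out any 1 of 6 the first call was lost (highest adjusted p 0.0796) and the second without 344SQ replicate 2 or 4 (highest 0.0573). Adk, whose kinase returns adenosine to AMP inside the cell, rose against 393LN by 0.94 (adjusted p = 0.0128), and the difference was 0.34 when all its probe sets, some of them dim, were averaged (adjusted p = 0.0857). The nucleoside transporter gene Slc29a1 rose against 393P by 1.28 (adjusted p = 0.038), which did not pass on leaving out any 1 of 7 (highest adjusted p 0.0986). The adenosine receptor gene Adora3 was dim and not called in any comparison, and the other adenosine receptor genes were not analysed here.

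**Figure D2:**
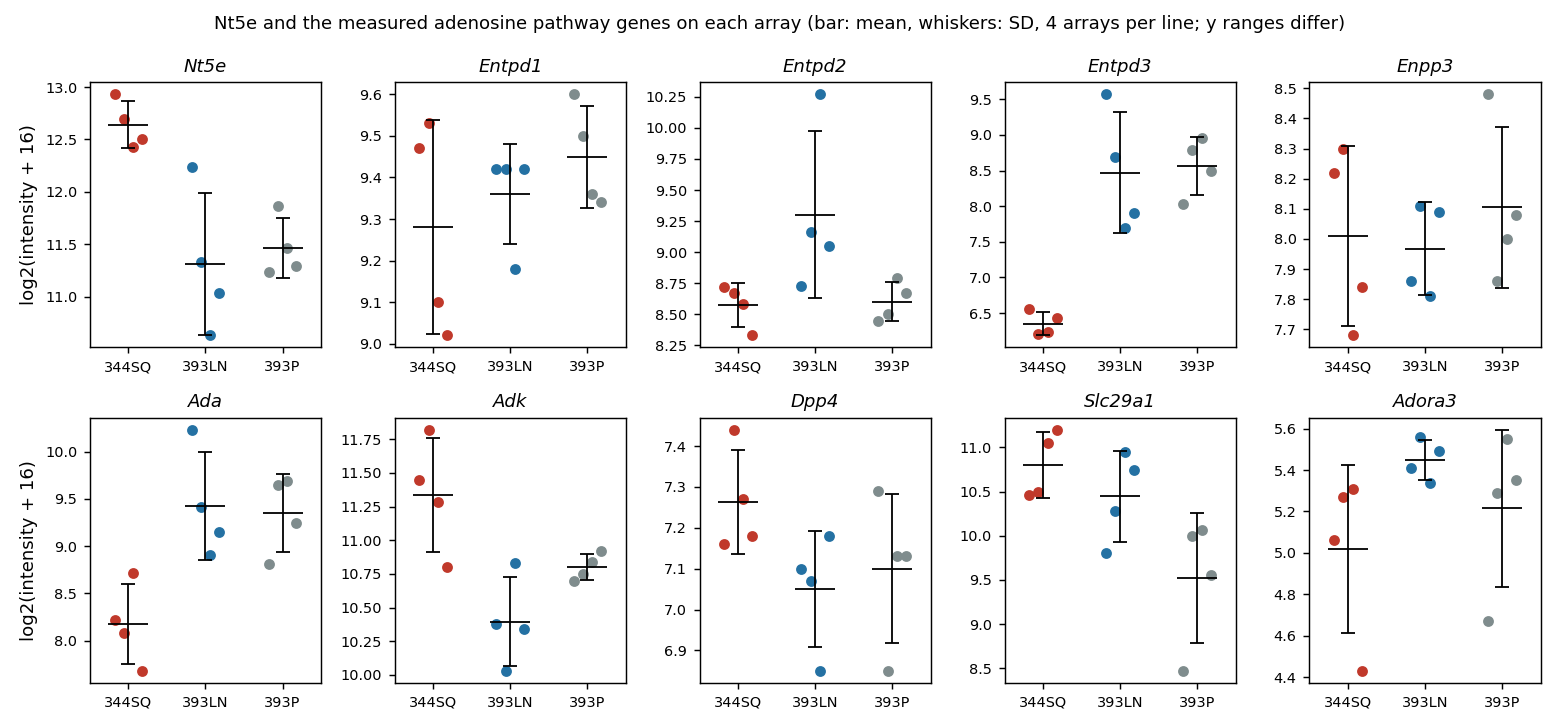
Level of Nt5e and the 9 measured adenosine pathway genes on every array, as log2(intensity + 16), by line (points are arrays, the bar is the mean and the whiskers the SD, 4 arrays per line; y axes differ). In 344SQ Nt5e lies above, and Entpd3 and Ada below, every array of the 393 lines.

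Vtcn1 encodes B7-H4, a ligand of the B7 family found on epithelial tumours that restrains T cells. It was dim: its mean over the arrays was at the 11.3th percentile of genes. In intensity, before the logarithm, it was 5.98, 6.50, 5.46 and 2.04 on the 344SQ arrays. The 393LN arrays gave 83.9, 34.5, 33.1 and 7.01, and the 393P arrays 24.9, 62.2, 47.2 and 49.2. All 4 344SQ values lay below the other 8, but 393LN replicate 4 was almost as low.

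On the log2 scale Vtcn1 fell by 1.53 in 344SQ against 393P (SE 0.35, n = 4 per line; 95% confidence interval -2.28 to -0.77; limma adjusted p = 0.0151). The difference from 393LN was -1.22 ± 0.35 (-1.98 to -0.47; adjusted p = 0.0418). The call against 393P held whichever array was left out (highest adjusted p 0.0483). That against 393LN ended on leaving out any 1 of 10 arrays, all but 393LN replicate 4 and 393P replicate 1 (highest adjusted p 0.0897), and with only these 2 lines in the fit (0.0783). Without 393LN replicate 4 the difference was -1.59. So near the floor the size depends on the constant added: with 1 in place of 16 the differences were -2.98 and -2.41, and with 64 they were -0.66 and -0.54. With 64 the call against 393LN also ended (adjusted p = 0.0761). The array gives this gene 1 probe set and the table no detection call.

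Some epithelial markers moved with Vtcn1. Of 9 such genes 4 fell in 344SQ in each comparison, Esrp1, Rab25, Cldn4 and Epcam, with differences from -7.06 to -3.64, and none rose. The other 5, Cdh1, Krt7, Krt8, Krt18 and Krt19, were not called and differed from 393P by -0.36 to 0.12 and from 393LN by -0.12 to 0.18. Medians over the 9 were -0.36 and -0.12. The mean level of the 9, which the 4 that fell pull down, was 10.55 to 10.80 on the 344SQ arrays, 12.77 to 13.18 in 393LN and 12.80 to 13.26 in 393P. Within 393LN the array lowest in Vtcn1, replicate 4, also had the lowest epithelial mean, 12.77, as did replicate 1 within 393P, 12.80. That 393P array was the one with the actin ratio of 1.47. Within 344SQ the array lowest in Vtcn1, replicate 4, had the highest epithelial mean, 10.80. The part of epithelial genes or cells in the Vtcn1 result was not tested.

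**Figure D3:**
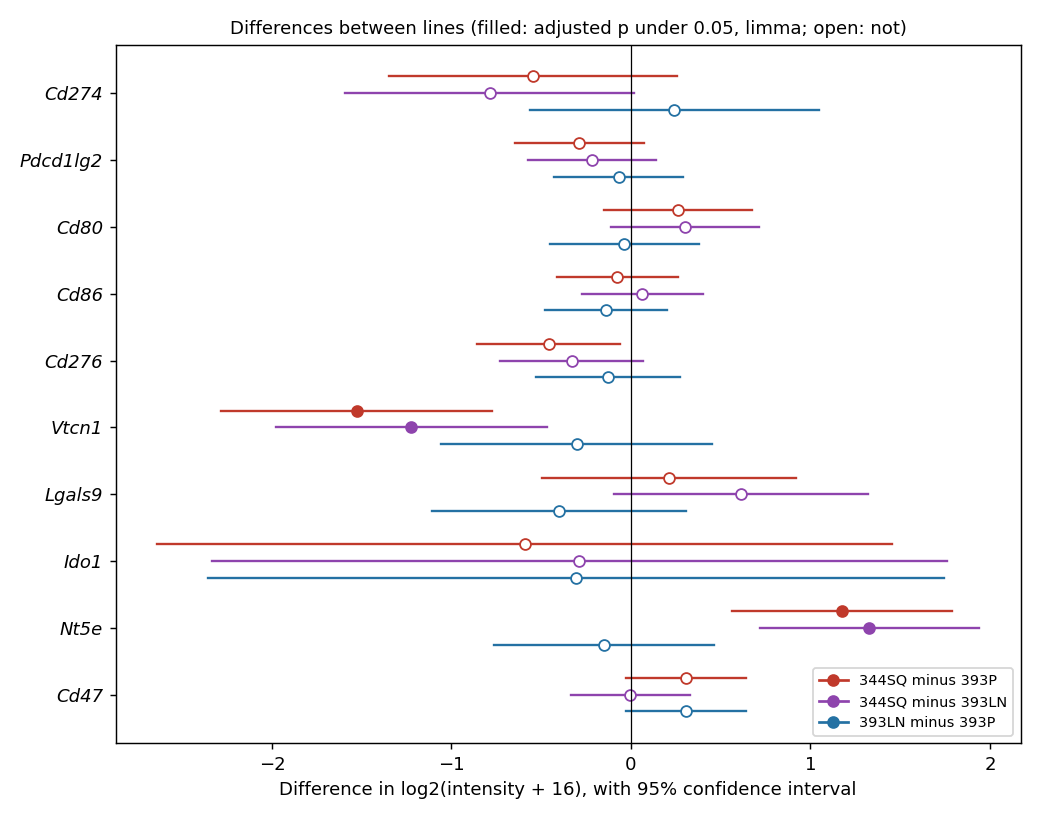
Difference of each of the 10 genes in 344SQ minus 393P, 344SQ minus 393LN and 393LN minus 393P, in log2(intensity + 16), with its 95% confidence interval from limma (n = 4 arrays per line; filled points have an adjusted p under 0.05). Only the Nt5e and Vtcn1 points of the 344SQ comparisons are filled, and the Ido1 intervals are the widest, from -2.64 to 1.46 for 344SQ minus 393P.

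Cd274 encodes PD-L1, the ligand that holds back T cells through PD-1. Its level was 8.34, 7.30, 7.13 and 6.59 on the 344SQ arrays. In 393LN it was 8.43, 8.84, 7.53 and 7.71, and in 393P 7.40, 8.18, 8.19 and 7.76. The lines overlapped, and the spread within a line, with a pooled SD of 0.59, was larger than that of 96.6% of genes. Group means were 7.34 ± 0.73 (SD, n = 4), 8.13 ± 0.61 and 7.88 ± 0.38 in 344SQ, 393LN and 393P. The differences of 344SQ were -0.55 from 393P (95% confidence interval -1.35 to 0.26; limma adjusted p = 0.434) and -0.79 from 393LN (-1.59 to 0.02; adjusted p = 0.205). A rise of Cd274 in 344SQ above 0.26 log2 units over 393P lies outside that interval, and a fall of up to 1.35 lies inside it.

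Ido1, the gene of the tryptophan-degrading enzyme, varied most of the 10. It was at 10.74, 8.77, 7.30 and 6.0 on the 344SQ arrays and at 10.49, 9.24, 6.71 and 7.54 on the 393LN arrays. On the 393P arrays it was at 8.54, 8.90, 8.55 and 9.20. The 344SQ values span intensities from 48.2 to 1700, and its spread within a line (pooled SD 1.54) exceeded that of 99.9% of genes. None of the 3 differences passed: 344SQ differed from 393P by -0.59 (95% confidence interval -2.64 to 1.46; limma adjusted p = 0.78) and from 393LN by -0.29 (-2.34 to 1.76; adjusted p = 0.89). Both signs turned without 344SQ replicate 4, where the differences were 0.14 and 0.45.

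The interferon response genes varied over the same arrays. The mean level of 24 of them was 10.99, 9.73, 9.24 and 7.39 on the 344SQ arrays, in the same order as both Cd274 and Ido1. In 393LN it was 10.43, 10.87, 9.62 and 10.37, and in 393P 9.59, 10.66, 10.65 and 10.27. Ido1 had another order in these lines. On 393LN replicates 1 and 4, close in interferon mean, Ido1 was at 10.49 and 7.54, and in 393P it was highest on replicate 4, at 9.20. In each line the array with the lowest interferon mean was also the lowest in Cd274, and 344SQ replicate 4 was the lowest of all 12 in both and in Ido1. In 393P that array was replicate 1, the one with the actin ratio of 1.47. Of the 24 genes 1, Usp18, was called in each 344SQ comparison (-2.84 and -2.46), and their median differences were -0.91 from 393P and -1.02 from 393LN. Irf1, the factor through which interferon gamma acts on Cd274, was at 12.24, 10.79, 10.50 and 9.17 on the 344SQ arrays, with differences of -1.03 ± 0.51 (adjusted p = 0.253) and -1.21 ± 0.51 (adjusted p = 0.159). Without 344SQ replicate 4 the Cd274 differences were -0.30 from 393P and -0.54 from 393LN. Without 344SQ replicate 1 they were -0.88 and -1.12. Markers of immune cells varied over these arrays too. On the 344SQ arrays the mean level of 6 NK cell markers was 8.12, 7.32, 7.16 and 6.94, that of 10 T cell markers 7.46, 6.86, 7.29 and 6.58, and that of 6 pan-leukocyte genes 11.20, 10.53, 11.06 and 10.12. All 3 were highest on replicate 1 and lowest on replicate 4, as were the macrophage and dendritic cell means. Other immune cell lists had another order. The neutrophil mean was 8.04, 9.14, 8.04 and 9.71, and the B and plasma cell mean 7.94, 7.22, 9.31 and 7.13. That of mast cell markers was 8.35, 8.52, 8.28 and 7.16. The part of the interferon response or of immune cells in the level of Cd274 or Ido1 was not tested.

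**Figure D4:**
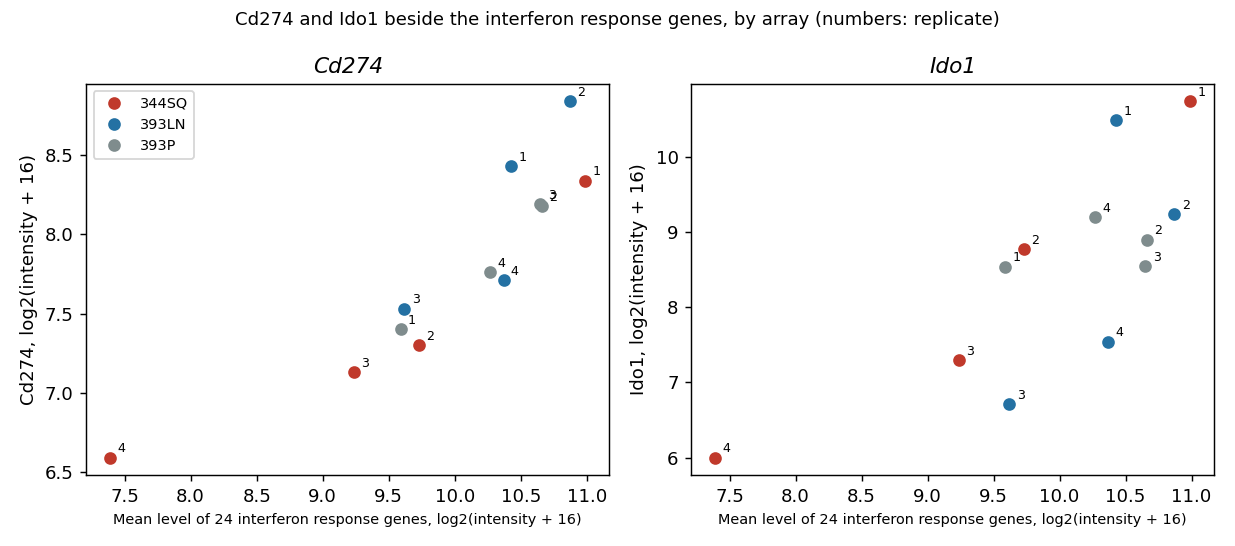
Level of Cd274 (left) and Ido1 (right) against the mean level of 24 interferon response genes on each of the 12 arrays, all as log2(intensity + 16), with points coloured by line and numbered by replicate. 344SQ replicate 4 is lowest on every axis (7.39 for the interferon genes, 6.59 for Cd274, 6.0 for Ido1).

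The genes most like Cd274 over the 12 arrays were Cyp4f16, Nlrc5, the transactivator of MHC class I genes, and Pnpla7, with Pearson r of 0.973, 0.971 and 0.960. With each line's mean subtracted they were Ifi202b, Parp9 and Ubd (0.985, 0.975 and 0.973). For Ido1 they were Mndal, Ubd and Shroom3 (0.888, 0.854 and 0.852), and with line means subtracted Cd200r4, Tlr3 and Sh3bgrl3 (0.936, 0.926 and 0.923). These coefficients describe the 12 arrays, were picked as the highest among all genes outside the dimmest 40%, and carry no test. Cd80 and Vtcn1, themselves in that dim range, were left out.

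Other regulators of Cd274 changed in part. Of 15 measured, 3 rose and none fell in 344SQ against 393P, and 1 rose and 1 fell against 393LN. Zeb1 was at 10.18, 10.09, 10.20 and 10.33 on the 344SQ arrays, above every array of the 393 lines, and rose by 1.29 ± 0.14 over 393P (limma adjusted p = 0.000122) and 0.98 ± 0.14 over 393LN (adjusted p = 0.00116). Its other 3 probe sets differed by 0.22, 0.05 and 1.34 from 393P. Ifngr2, an interferon gamma receptor chain gene, and Hif1a, the hypoxia factor gene, rose against 393P by 0.44 and 0.48, calls that ended on leaving out any 1 of 9 and 10 arrays (highest adjusted p 0.118 and 0.112). Myc fell by 1.27 against 393LN (adjusted p = 0.0113) but was not called against 393P (-0.39, adjusted p = 0.449). It was at 11.46, 12.73 and 11.85 in 344SQ, 393LN and 393P. Cmtm6, whose product protects PD-L1 from degradation, differed by 0.15 and 0.41 (adjusted p = 0.774 and 0.315), and the interferon gamma gene Ifng was dim and differed by -0.26 and -0.88 (adjusted p = 0.79 and 0.214).

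Pdcd1lg2 encodes PD-L2, the second ligand of PD-1. It was at 8.10, 7.80, 7.83 and 7.42 in 344SQ, 8.12, 8.07, 7.98 and 7.85 in 393LN and 7.91, 8.42, 8.19 and 7.78 in 393P. The lines overlapped, and 344SQ differed by -0.29 from 393P (95% confidence interval -0.64 to 0.07; limma adjusted p = 0.335) and -0.22 from 393LN (-0.58 to 0.14; adjusted p = 0.452). The genes most like it were Mllt3, Frmd4b and Ets2 (r of 0.911, 0.888 and 0.886), and Esyt2, Rnf114 and Arid4b with line means subtracted (0.948, 0.936 and 0.930).

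Cd80 and Cd86 encode B7-1 and B7-2, which antigen-presenting cells use to engage CD28 or its inhibitory counterpart CTLA-4. Cd80 was dim and overlapped across lines, at 6.73 to 7.21 in 344SQ, 6.44 to 6.94 in 393LN and 6.28 to 7.24 in 393P. Its differences in 344SQ were 0.26 from 393P (95% confidence interval -0.15 to 0.68) and 0.30 from 393LN (-0.11 to 0.71), and its 3 other probe sets were dimmer still. Cd86 was at 8.44 to 8.74, 7.98 to 8.74 and 8.51 to 8.74 in 344SQ, 393LN and 393P, with differences of -0.08 (-0.41 to 0.26) and 0.06 (-0.27 to 0.40). A dimmer probe set of Cd86 differed more, by -0.70 and -0.88, and did not pass (limma adjusted p = 0.172 and 0.0804 over the probe sets). On that probe set 344SQ ran from 6.07 to 7.34, 393LN from 7.15 to 7.96 and 393P from 6.91 to 7.86. The genes most like Cd86 were Mab21l2, Tm6sf1 and Neurl1a (r of 0.891, 0.854 and 0.852), and Adgrg2, Lonrf3 and Tor1aip1 with line means subtracted (0.910, 0.906 and 0.895).

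Myeloid markers were lower in 344SQ in part. Of 15 macrophage and monocyte genes 3 fell against 393P, Aif1, Tyrobp and Cd14 (-1.26, -0.92 and -0.75). Against 393LN 2 fell and Cd163 rose by 1.64. At an unadjusted p under 0.05, 11 of the 15 passed against 393P (median difference -0.65) and 7 against 393LN (median -0.53), beside 23.6% and 25.7% of all genes. These counts hold both directions. Those passing against 393P included Mrc1 and Cd163, whose differences were upward, 0.68 and 1.16, and those against 393LN included Cd163. The dendritic cell and macrophage integrin gene Itgax fell by 1.09 and 0.94, the only 1 of 11 dendritic cell markers called. Against 393P the Itgax call was lost without 344SQ replicate 3 or 393P replicate 2 (highest adjusted p 0.0561). The Cd14 call was lost on leaving out any 1 of 6, and against 393LN those of Cd163, Itgax and Tyrobp on leaving out any 1 of 9, 7 and 9 (highest adjusted p 0.116 of the 4 calls). Mean levels of the macrophage list were 10.11 to 10.84 in 344SQ, 10.46 to 11.02 in 393LN and 10.64 to 11.30 in 393P, and its part in the Cd86 and Cd80 values was not tested.

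Cd276 encodes B7-H3, a B7 family protein common on tumour cells. It was at 9.73, 9.93, 9.80 and 9.73 in 344SQ, 10.58, 10.01, 9.99 and 9.92 in 393LN and 9.89, 10.55, 10.58 and 10.00 in 393P. Only 344SQ replicate 2 reached the lowest arrays of the other lines. The difference from 393P was -0.46 ± 0.18 (95% confidence interval -0.86 to -0.06; limma adjusted p = 0.148), and from 393LN -0.33 ± 0.18 (-0.73 to 0.07; adjusted p = 0.291), so neither passed over all genes. Iqgap3, Strn4 and Lrrc42 were most like it (r of 0.958, 0.906 and 0.905), and Suz12, Golim4 and Iqgap3 with line means subtracted (0.973, 0.963 and 0.948).

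Lgals9 encodes galectin-9, a lectin that binds TIM-3 on T cells. It was at 12.28, 11.86, 11.92 and 11.86 in 344SQ, 10.60, 11.77, 11.63 and 11.47 in 393LN and 10.72, 12.23, 12.03 and 12.09 in 393P. The 4 344SQ arrays lay above the 4 of 393LN, as 6.72% of genes did, and with Nt5e and Vtcn1 this made 3 members whose values did not overlap in that comparison, where 17.4% of genes do not (10.7% lower). The difference did not pass (0.61 ± 0.32; 95% confidence interval -0.10 to 1.32; limma adjusted p = 0.267) and was 0.36 without 393LN replicate 1. From 393P it was 0.21 (-0.50 to 0.92; adjusted p = 0.772), and -0.14 without 393P replicate 1, the array with the actin ratio of 1.47. Rac3, Crim1 and Arhgap45 were most like it (r of 0.867, 0.866 and 0.860), and Kars, Sars and Syngr2 with line means subtracted (0.923, 0.921 and 0.919).

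Cd47 encodes the signal that tells phagocytes not to engulf a cell. It was at 12.35, 12.04, 11.94 and 11.98 in 344SQ, 11.98, 12.41, 11.95 and 11.98 in 393LN and 11.44, 12.02, 11.84 and 11.79 in 393P. The differences were 0.31 for 344SQ minus 393P and 0.31 for 393LN minus 393P (95% confidence interval -0.03 to 0.64 for each; limma adjusted p = 0.258 and 0.368). The other 4 probe sets of Cd47 split by brightness. The 2 bright ones were 0.64 and 0.66 higher in 344SQ than in 393P (adjusted p = 0.0529 and 0.0762 over the probe sets) and the 2 dim ones 0.15 and 0.35. None passed. The genes most like the main one were Cndp2, Glrx and Sdf2l1 (r of 0.924, 0.891 and 0.880), and Kcnma1, Rras and Socs1 with line means subtracted (0.956, 0.935 and 0.927). Pdlim5 was nearest to Nt5e by either measure (0.985 and 0.960), followed by H1f2 and Clic4 (0.961 each), or Yeats2 and Mbnl2 with line means subtracted (0.952 and 0.929).

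**Figure D5:**
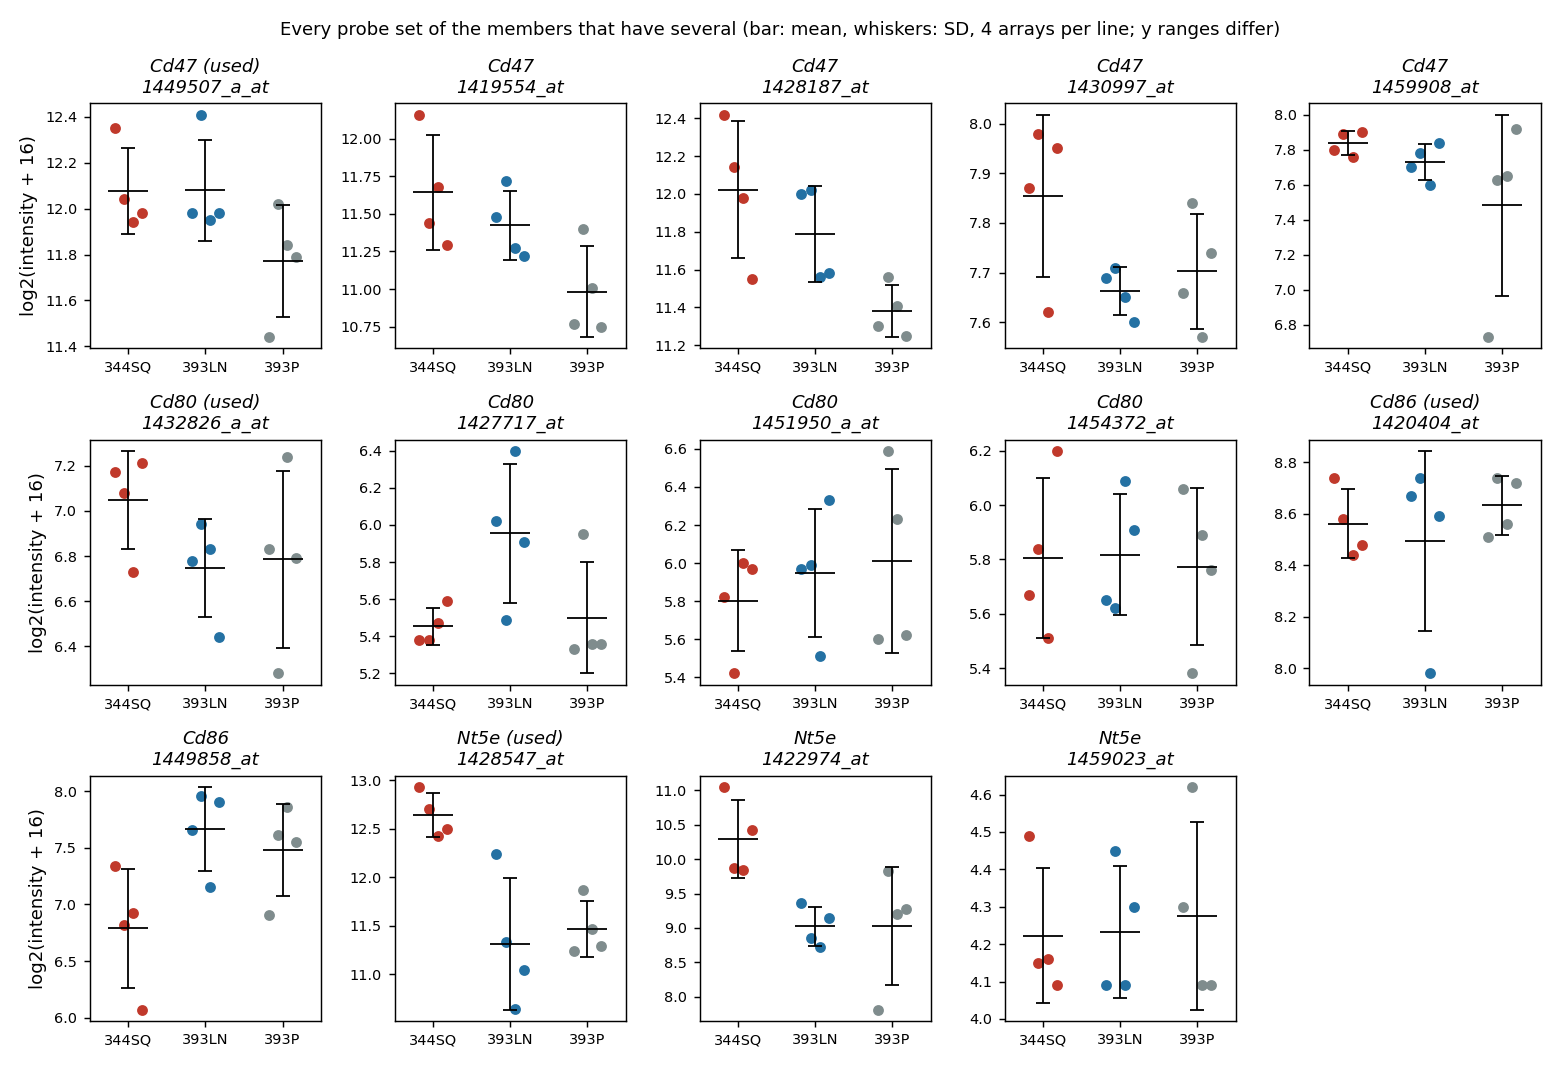
Every probe set of Cd47, Cd80, Cd86 and Nt5e on every array, as log2(intensity + 16), by line (points are arrays, the bar is the mean and the whiskers the SD, 4 arrays per line; y axes differ; "used" marks the brightest, which stands for the gene). The second Nt5e probe set also places the 4 344SQ arrays (9.84 to 11.05) above all others, and the second Cd86 probe set ran from 6.07 to 7.34 in 344SQ, with 393LN between 7.15 and 7.96.

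The receptors of these ligands were mostly dim, 4 of the 6 measured being in the dimmest 40% of genes. Limma called 0 of 6 in any comparison, and 0 passed at an unadjusted p under 0.05. Pdcd1, the gene of PD-1, was at 6.52 ± 0.52 (SD, n = 4), 7.02 ± 0.36 and 6.83 ± 0.49 in 344SQ, 393LN and 393P. Ctla4 was at 5.12, 5.22 and 5.05, the costimulatory receptor gene Cd28 at 6.70, 6.82 and 6.85 and the TIM-3 gene Havcr2 at 6.27, 6.75 and 6.35. Sirpa, the phagocyte receptor of CD47, was bright and level, at 11.15 ± 0.20, 11.15 ± 0.15 and 11.12 ± 0.42. Of 10 T cell markers 1, Cd2, rose against 393P (0.94, limma adjusted p = 0.0162), and 0 were called against 393LN, with 0 unadjusted. Cd2 was dim, with its mean at the 16.2th percentile of genes. Its difference from 393P ran from 0.48 to 1.38 in the settings other than leaving out an array.

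Few genes of the neighbouring pathways were called. Among 16 other inhibitory ligands and receptors the ligand gene Cd200 fell against 393LN (-0.78, limma adjusted p = 0.042), but not on leaving out any 1 of 9 (highest adjusted p 0.116). Among 9 costimulatory genes Tnfsf9, the gene of the 4-1BB ligand, fell against 393LN (-1.32, adjusted p = 0.0201; lost on leaving out any 1 of 5, highest 0.0589). Of 13 soluble suppressors, Nos2, the inducible nitric oxide synthase gene, and the growth factor gene Csf2 fell against 393P (-1.17 and -1.08; adjusted p = 0.026 and 0.0236), and did not pass on leaving out any 1 of 3 and of 6 (highest 0.072 and 0.0677). Of 9 other genes of tryptophan use, Ahr, the receptor for kynurenine, rose against 393P by 1.27 (adjusted p = 0.0181) on 1 of its probe sets, while the other differed by 0.00. The Ahr call was lost on leaving out any 1 of 3 (highest 0.0552). Kyat1, which makes kynurenic acid, fell against 393LN by 1.28 (adjusted p = 0.00132), at 7.86 ± 0.31 in 344SQ and 9.14 ± 0.33 in 393LN. In 393P it was at 8.41 ± 0.19, between the other lines, and 344SQ was not called against it (-0.55, adjusted p = 0.0926).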

How the data were processed

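Total RNA from 12 tumours was measured on 1-colour Affymetrix mouse arrays; biotin-labelled cRNA was made by the maker's standard protocol, per the labels. The deposited probe set intensity values are linear. How the authors summarised or normalized the probes: not given in the sources used here. Each value (100% of them, within 1e-08) is 2 to a power with 2 decimals. They were taken as log2(intensity + 16) with no further normalization, which understates folds near the floor. Precision is limited by the number of arrays. Other columns of values: 0.

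Of 45101 probe sets, those with 1 symbol in the annotation given were used (932 had several and 9160 none). The brightest probe set on average stood for its gene, without a filter on low values, in 1 limma 3.58.1 model (R 4.3.3; lmFit, eBayes; 1 mean per line, 9 residual degrees of freedom), two-sided, with Benjamini-Hochberg adjustment. Confidence intervals are unadjusted. The script was tested on simulated data. Another motif searched in the promoter windows is not reported here. Alternatives were scaling, constant, dim-gene filter, probe set rule, prior, lines in the fit and leaving out each array.

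Members and gene lists were chosen with earlier results of these data known, so no list was tested; lists are given by counts. Named genes are the members, many of the list genes that passed, partners fixed by name and the 3 genes most correlated with each member outside the dimmest 40%. List genes that passed without being described above include Il1b, Cd52 and Sftpd, lower in 344SQ than in 393P, and Lpcat1, lower in 344SQ than in 393LN.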

Additional observations from a re-analysis of the deposited data

Results flagged for a closer look

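Within each group of 4 arrays the highest and lowest value of every member were checked for a gap to the next array that takes up most of the group's range (Dixon's 95% critical value). Of 30 groups checked 4 had such a gap, where chance gives about 1 in 20. Cd276 was at 10.58 on 393LN replicate 1, against 9.92 to 10.01 on the other 3 arrays of that line. Lgals9 was at 12.28 on 344SQ replicate 1, against 11.86 to 11.92, and at 10.72 on 393P replicate 1, against 12.03 to 12.23. Cd47 was at 12.41 on 393LN replicate 2, against 11.95 to 11.98. None of these genes was called in any comparison with all arrays or with any array left out.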

How the results depend on the processing

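No paired analysis was run because the labels give no pairing of tumours between lines. They also give no replicate numbers, and those used here count the arrays of a line in the order of the series. Of 30 member differences 27 kept their side of the threshold in every setting run, which were 12 with an array left out and 10 others (8 for Vtcn1 and 9 for Cd274, Pdcd1lg2 and Cd80, which the filters on dim genes removed); the exceptions were Nt5e in both 344SQ comparisons and Vtcn1 against 393LN. No called difference changed sign. For 344SQ against 393P the count of members called was 1 in place of 2 without the dimmest 25% or 50% of genes, which removes Vtcn1, and with the probe set of largest SD for each gene, where Nt5e did not pass (adjusted p = 0.0629). For 344SQ against 393LN it was 1 in place of 2 in those 3 settings (Nt5e adjusted p = 0.0622), with a constant of 64 and with only the 2 lines compared. Leaving out 1 array gave 1 to 2 members called in each 344SQ comparison and 0 to 0 for 393LN against 393P. Over all genes, leaving out 1 array gave 1259 to 1932 calls for 344SQ against 393P (1907 with all), 1167 to 2481 for 344SQ against 393LN (1984) and 156 to 438 for 393LN against 393P (446); the last was 174 with only those 2 lines in the fit. Dim members, Vtcn1 and Cd80, are limited by signal near the floor, and causes of the other changes were not tested.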
